A study of Rattus norvegicus with 6 samples.

Results

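The Notch ligands, receptors and targets described here are 10 genes, *Notch1*, *Notch2*, *Notch3*, *Notch4*, *Jag1*, *Jag2*, *Dll1*, *Dll4*, *Hes1* and *Hey1*. They were taken by their symbols from a deposited table of 19616 genes, and all 10 were found, each on 1 line of the table. RNA of whole liver tissue from 6 male SD rats had been sequenced after removal of ribosomal RNA, with 1 library per rat, to compare fibrotic with normal liver. The 3 rats of the FL group (FL2, FL5 and FL12) had received CCl4 (carbon tetrachloride, toxic to hepatocytes) mixed with an equal volume of olive oil into the peritoneum, at 2 mL/kg and 2 times a week for 5 weeks. The 3 rats of the CL group (CL5, CL6 and CL7) had received olive oil alone in the same volume. The age of the rats was not given in the sources used here.

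Notch receptors sit in the cell membrane and are bound by ligands of the Jagged and Delta-like families on neighbouring cells. Binding is followed by cleavage of the receptor by ADAM proteases and then by the gamma-secretase complex, and the freed intracellular fragment joins the DNA-binding protein RBPJ in the nucleus, where genes of the Hes and Hey families are turned on. In the liver the pathway is known for its part in the formation of bile ducts and in the sinusoidal endothelium.

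Values were given as FPKM, the fragments of a gene scaled to the length of its transcript and to the mapped fragments of the library, so that levels of different genes in 1 rat are set against transcript length. The groups were compared with limma on log2(FPKM + 0.1), over the 14864 genes that averaged 0.1 FPKM or more, with Benjamini-Hochberg adjustment of the p-values over all of them. Genes with a fold change of at least 2 at an adjusted p under 0.05 were taken as differentially expressed genes (DEGs). Of all genes tested, 9.29% were upregulated and 0.935% downregulated DEGs, the background for each count of DEGs given here. Values of single rats are listed in the order CL5, CL6, CL7 and FL2, FL5, FL12. On the log2(FPKM + 0.1) scale the change of a gene with low FPKM is understated. Of the 10 Notch genes 9 were tested, and *Jag2* lay under the limit on the mean. The FL group lay above the CL group by a median of 0.29 on the log2 scale over all genes tested. That median became 0.08 with median scaling of the rats and -0.04 with quantile normalization, so that the change of each Notch gene tested, and of most pathway genes named, is also given relative to 0.29.

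Markers of several cell types moved with the groups, and FL2 stood apart from FL5 and FL12 in some of them. The summed level of 9 stellate cell and myofibroblast genes was 81.8, 85.8 and 80.0 FPKM in the CL rats, against 202 FPKM in FL2, 543 FPKM in FL5 and 495 FPKM in FL12. *Col3a1*, a fibrillar collagen, was the most abundant of them, and 5 of the 8 tested were upregulated DEGs (9.29% of all genes). FL2 thus lay between the CL rats and the other FL rats. The 6 genes of cycling cells, led by *Mki67*, summed to 2.75, 5.36 and 3.58 FPKM in the CL rats, and to 4.69 FPKM in FL2, 22.4 FPKM in FL5 and 19.4 FPKM in FL12. Here FL2 lay within the range of the CL group, and 2 of the 6 genes were upregulated DEGs, again beside 9.29%. For this reason log2 fold changes of the Notch genes are also given without FL2. Those not given with the gene were 0.24 for *Notch1*, 0.64 for *Notch4*, 0.05 for *Dll1*, -0.49 for *Dll4* and 1.67 for *Hes1*.

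Hepatocyte genes were abundant in all 6 libraries, with the highest of them, *Alb*, at between 24149 and 33392 FPKM. The 7 genes summed to 44450, 42150 and 42660 FPKM in the CL rats and to 33210, 35460 and 34630 FPKM in the FL rats, without overlap, while 0 of the 7 were called by limma in either direction (at an unadjusted p under 0.05, 1 was higher and 0 were lower in the FL group, beside 31.5% and 4.04% of all genes tested). Their median log2 fold change was -0.21, with 3 positive and 4 negative, and -0.43 with median scaling. With quantile normalization the median turned to 0.21, with 4 positive and 3 negative, and that of *Alb* turned from -0.38 to 0.49. All FL rats were lower than all CL rats in 3 of the 7 and higher in 1. Among the 3, *Alb* lay at 31431 to 33392 FPKM in the CL rats and at 24149 to 25209 FPKM in the FL rats. Its log2 fold change of -0.38 still had an SE of 0.98 from limma, and that of *Ttr*, -0.63, an SE of 0.42. For these genes the absence of a call does not show that levels were equal.

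Among the receptors, *Notch2* was the most abundant and no receptor was a DEG. *Notch1* is the founding member of the receptor family. Its level was 2.97, 2.88 and 2.87 FPKM in the CL rats, and 3.16, 3.58 and 3.33 FPKM in the FL rats. Every FL rat lay above every CL rat, by a small margin. On the log2 scale the change was 0.20 (SE 0.13, 95% interval -0.11 to 0.50), with an adjusted p of 0.312 from limma, and -0.09 relative to the median of all genes. The direction turned with the scaling, to -0.018 with median scaling and to -0.18 with quantile normalization.

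*Notch2*, the receptor whose loss in humans and mice is known to reduce bile ducts, stood at 8.93, 7.66 and 7.46 FPKM in the CL rats. It stood at 6.64, 7.40 and 8.49 FPKM in the FL rats. The groups overlapped widely. The log2 fold change of *Notch2* was -0.10 (SE 0.14, 95% interval -0.41 to 0.22; adjusted p of 0.648 from limma), which is -0.38 relative to all genes. It was -0.32 (95% interval -0.60 to -0.04; adjusted p of 0.13) with median scaling, -0.36 (95% interval -0.64 to -0.08; adjusted p of 0.11) with quantile normalization, and -0.012 (adjusted p of 0.957) without FL2. Its adjusted p ranged from 0.11 to 0.957 over the alternatives.

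*Notch3*, a receptor of pericytes and vascular smooth muscle, measured 0.47, 0.52 and 0.38 FPKM in the CL rats. In FL2, FL5 and FL12 it measured 0.55, 0.90 and 1.08 FPKM. The groups did not overlap, but FL2 lay close to the CL rats. This gave a log2 fold change of 0.73 (SE 0.30, 95% interval 0.04 to 1.41), or 0.44 relative to all genes, with an adjusted p of 0.122 from limma. Without FL2 the log2 fold change of *Notch3* was 0.97 with an adjusted p of 0.0348, still short of a fold change of 2. Over all alternatives its adjusted p ranged from 0.0348 to 0.756, the highest with quantile normalization, where the log2 fold change was 0.13.

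*Notch4*, a receptor mainly of endothelial cells, measured 0.65, 0.58 and 0.51 FPKM in the CL rats, and 0.71, 0.89 and 1.03 FPKM in the FL rats. The lowest FL rat again lay just above the highest CL rat. The fitted log2 fold change was 0.51 (SE 0.24, 95% interval -0.04 to 1.07; adjusted p of 0.163 from limma) and 0.23 relative to all genes. With quantile normalization it turned to -0.087.

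The share of each receptor in the summed FPKM of the 4 receptors of a rat is not changed by a single factor per rat, as in median scaling, but it is changed by quantile normalization. This comparison was chosen after the data had been seen. The sum itself was 11.96 ± 0.94 FPKM for the CL and 12.59 ± 1.44 FPKM for the FL rats (SD, n = 3 each). *Notch2* took 68.6%, 65.8% and 66.5% of it in the CL rats, but 60.0%, 58.0% and 61.0% in the FL rats. The shares of *Notch2* did not overlap between the groups, and the mean was 7.32 percentage points lower in the FL group. *Notch3* took 3.61%, 4.47% and 3.39% in the CL rats and 4.97%, 7.05% and 7.75% in the FL rats. *Notch4* took 4.99%, 4.98% and 4.55% in the CL rats and 6.42%, 6.97% and 7.39% in the FL rats. Both of these minor receptors held a larger share in every FL rat than in any CL rat. The exact two-sided permutation test gave p = 0.1 for each of these 3 shares, the smallest p that 3 rats against 3 can give, and p = 0.3 for *Notch1*, all unadjusted. With quantile normalization, also tried after the data had been seen, the share of *Notch2* was 3.90 percentage points lower in the FL group and that of *Notch4* was 0.70 percentage points higher, both without overlap, while the shares of *Notch3* overlapped. The 4 shares of a rat add up to the whole and are therefore not independent.

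**Figure D1:**
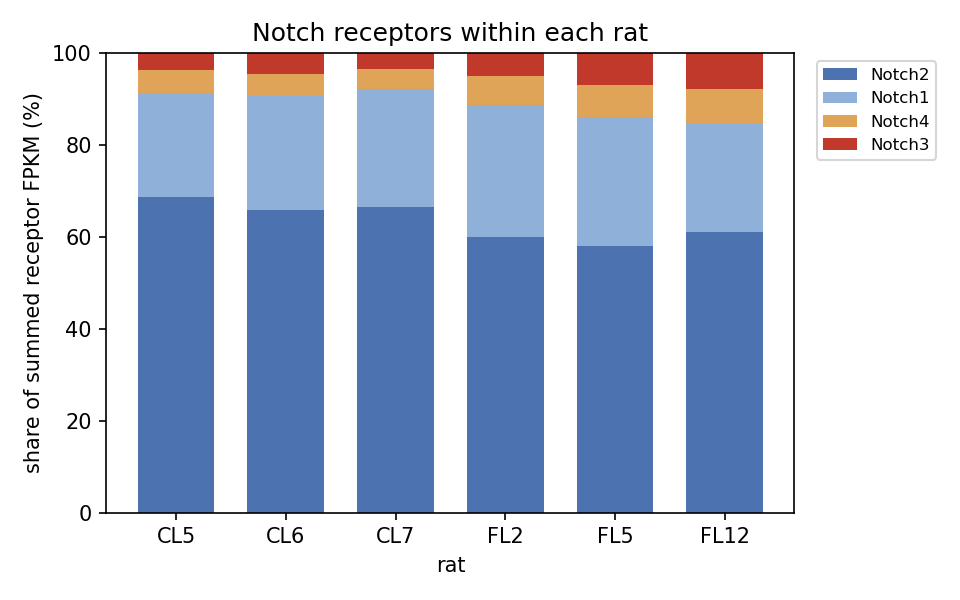
Share of each Notch receptor in the summed FPKM of the 4 receptors (vertical axis, percent) in each rat (horizontal axis), as stacked bars that each add up to the whole. The share of Notch2 lies between 65.8% and 68.6% in the CL rats and between 58.0% and 61.0% in the FL rats.

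In the order of the receptors, *Notch2* and *Notch1* came before the others in every rat. *Notch4* exceeded *Notch3* in the 3 CL rats and in FL2, whereas *Notch3* exceeded *Notch4* in FL5 and FL12. The ratio of *Notch3* to *Notch4* was 0.723, 0.897 and 0.745 in the CL rats, and 0.775, 1.01 and 1.05 in the FL rats. FL2 lay within the CL range, and the mean log2 ratio differed by 0.26 (exact two-sided permutation p = 0.2, adjusted p = 0.3 over 3 ratios). With a rat left out this difference lay between 0.17, without FL12, and 0.39, without FL2.

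Markers of cells that are known to carry these receptors were read beside them. The 4 genes of vascular mural cells, where *Rgs5* was the most abundant, summed to 11.8, 6.60 and 6.83 FPKM in the CL rats and to 28.5, 43.2 and 25.6 FPKM in the FL rats, with *Rgs5* an upregulated DEG among the 3 tested. Without *Rgs5* the sums were 1.78, 1.31 and 1.42 FPKM in the CL rats and 1.39, 4.23 and 3.21 FPKM in the FL rats, with FL2 inside the CL range. The 10 endothelial genes, led by *Kdr*, summed to 90.3, 94.3 and 85.5 FPKM in the CL rats and to 116, 108 and 116 FPKM in the FL rats, with 1 of the 10 (*Vwf*) an upregulated DEG, beside 9.29% of all genes. At an adjusted p under 0.05 with any fold change, 4 of the 10 were higher (*Vwf*, *Stab2*, *Tie1* and *Eng*), beside 16.9% of all genes, and with median scaling this held for *Stab2* alone (adjusted p of 0.0466). In 7 of the 10, the FL rats lay above all CL rats, beside 35.7% of all genes. The median log2 fold change of the 10 was 0.41, beside 0.29 over all genes, and 8 were positive, the exceptions being *Kdr* (-0.21) and *Tek* (-0.0071). No gene of these lists was at 0 in every rat. In whole tissue, a change in the number of cells of a type and a change in the RNA of each cell cannot be told apart, and the part of these cells in the receptor values was not tested.

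*Jag1*, *Dll1* and *Dll4* lay close together, with *Jag2* far below them, and 0 of the 3 ligands tested was a DEG by limma, with 0 at an unadjusted p under 0.05 in either direction (31.5% of all genes higher and 4.04% lower). *Jag1*, the ligand mutated in Alagille syndrome, a disorder with few bile ducts, measured 0.93, 1.39 and 1.45 FPKM in the CL rats, and 1, 1.26 and 1.21 FPKM in the FL rats. The FL values fell inside the CL range. Its log2 fold change was -0.09 (SE 0.23, 95% interval -0.62 to 0.43; adjusted p of 0.794 from limma), which is -0.38 relative to all genes. It was -0.30 (adjusted p of 0.409) with median scaling and -0.62 (95% interval -1.08 to -0.15; adjusted p of 0.0995) with quantile normalization. Without FL2 it was -0.0002, without CL7 it turned to 0.015, and the adjusted p ranged from 0.0995 to 1 over the alternatives.

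*Jag2*, the other Jagged ligand, was the lowest Notch gene in all 6 rats. It stood at 0.07, 0.08 and 0.09 FPKM in the CL rats, and at 0.04, 0.05 and 0.18 FPKM in the FL rats. FL12 was highest and the other FL rats were lowest, at a level that rests on few fragments. With no limit on the mean the log2 fold change was 0.01, with an adjusted p of 0.995 from limma.

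*Dll1*, a Delta-like ligand, measured 1.42, 0.85 and 1.33 FPKM in the CL rats, and 1.26, 1.49 and 1 FPKM in the FL rats. The groups overlapped almost fully. Its log2 fold change was 0.07 (SE 0.25, 95% interval -0.52 to 0.65; adjusted p of 0.868 from limma) and -0.22 relative to all genes, and it turned to -0.14 with median scaling and to -0.44 with quantile normalization.

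*Dll4*, a ligand of endothelial cells, measured 1.18, 1.42 and 1.24 FPKM in the CL rats, and 1.18, 0.85 and 0.91 FPKM in the FL rats. FL5 and FL12 lay below every CL rat, and FL2 equalled the lowest CL rat. On the log2 scale the change was -0.36 (SE 0.21, 95% interval -0.84 to 0.12; adjusted p of 0.246 from limma) and -0.65 relative to all genes. Of the ligands tested, *Dll4* had the lowest log2 fold change under each scaling, with -0.57 (adjusted p of 0.12) under median scaling and -0.90 (adjusted p of 0.0606) under quantile normalization. Over all alternatives the adjusted p ranged from 0.0606 to 0.462.

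The order of *Jag1*, *Dll1* and *Dll4* differed from rat to rat within each group. *Dll1* led in CL5, FL2 and FL5, *Dll4* in CL6, and *Jag1* in CL7 and FL12. The 4 ligands summed to 3.82 ± 0.26 FPKM for the CL and to 3.48 ± 0.18 FPKM for the FL rats (SD, n = 3 each), and the share of each ligand overlapped between the groups. The ratio of *Jag1* to *Dll4* was 0.788, 0.979 and 1.17 in the CL rats, and 0.847, 1.48 and 1.33 in the FL rats. The mean log2 ratio differed by 0.30 between the groups, with FL2 within the CL range (exact two-sided permutation p = 0.4, adjusted p = 0.4 over 3 ratios). Leaving out a rat gave 0.14 (without FL5) to 0.54 (without FL2), with 0.15 without CL5.

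Of the targets, *Hes1* was upregulated and was the only DEG of the 9 Notch genes tested. *Hes1* encodes a repressor of the basic helix-loop-helix class that responds to Notch and to other pathways, and in the table it is assigned to chromosome 11. Its level was 2.73, 1.95 and 2.29 FPKM in the CL rats, and 5.61, 11.33 and 5.01 FPKM in the FL rats. Each FL rat lay well above the CL rats, with FL5 the highest. In FL5, *Hes1* exceeded *Notch2* and was the most abundant of the 10 genes. This gave a log2 fold change of 1.53 (SE 0.30, 95% interval 0.84 to 2.22), a fold change of 2.89, with an adjusted p of 0.0136 from limma and 3 of 3 FL rats above all CL rats. Relative to all genes it was 1.24. The call of *Hes1* was lost with quantile normalization (log2 fold change 1.20, adjusted p of 0.0564) and without CL7 (1.53, adjusted p of 0.0535). Over all alternatives the adjusted p ranged from 0.0105 to 0.0564 and the log2 fold change from 1.17, without FL5, to 1.75, without FL12.

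*Hey1*, a related repressor and target, measured 0.85, 0.81 and 0.65 FPKM in the CL rats, and 1.38, 0.29 and 0.39 FPKM in the FL rats. FL2 was above every CL rat, while FL5 and FL12 were below every CL rat. The fitted log2 fold change was -0.40 (SE 0.48, 95% interval -1.50 to 0.71; adjusted p of 0.58 from limma) and -0.69 relative to all genes. Without FL2 it was -0.99 with an adjusted p of 0.0391, short of a fold change of 2, and without FL5 it was -0.02 with an adjusted p of 0.98. These are the ends of its range over the alternatives.

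The ratio of *Hes1* to *Hey1* within a rat was 3.21, 2.41 and 3.52 in the CL rats. It was 4.07, 39.1 and 12.9 in the FL rats. All FL rats exceeded all CL rats, FL2 by little. The mean log2 ratio differed by 2.08 (exact two-sided permutation p = 0.1, the smallest possible, adjusted p = 0.3 over 3 ratios). The difference was 1.26 without FL5 and 2.90 without FL2, the ends of its range with a rat left out.

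**Figure D2:**
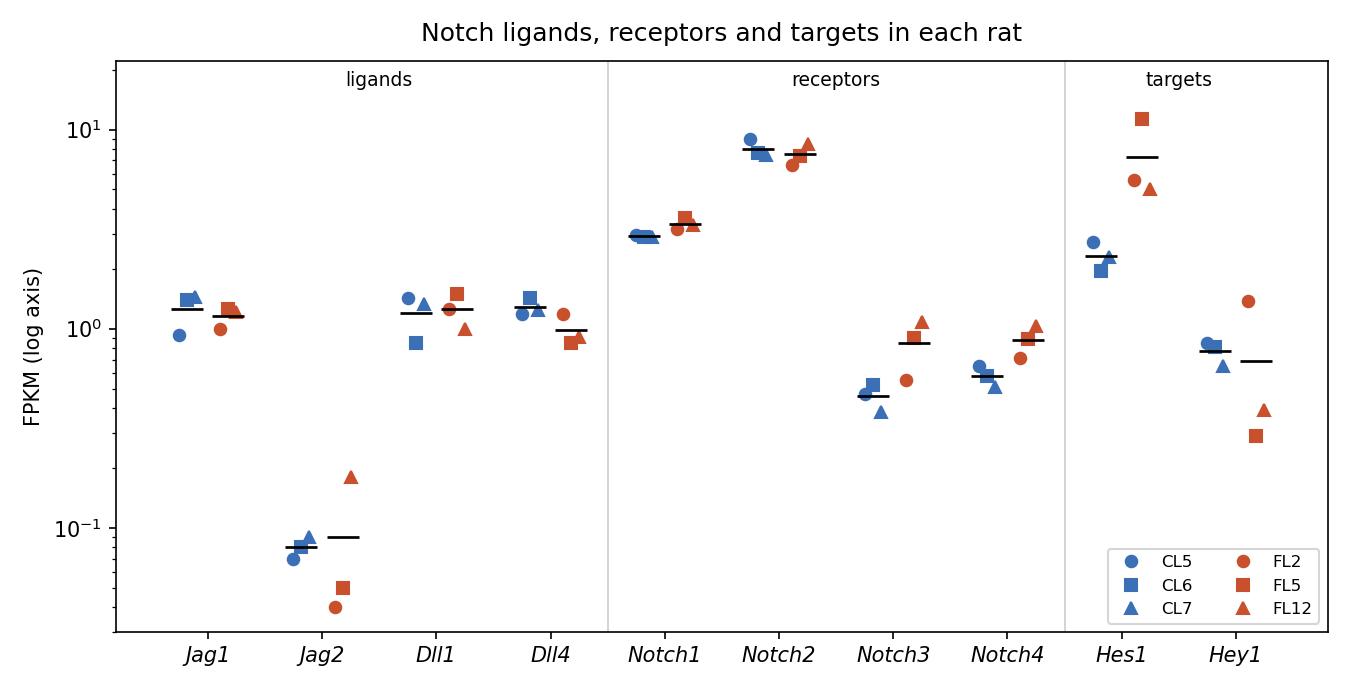
FPKM (vertical axis, log scale) of the 10 Notch genes in each rat, CL in blue and FL in orange, with a marker for each rat and the group mean as a bar. Hes1 lies at 1.95 to 2.73 FPKM in the CL rats and at 5.01 to 11.33 FPKM in the FL rats, whereas Hey1 is at 1.38 FPKM in FL2 but lower in FL5 (0.29 FPKM) and FL12 (0.39 FPKM).

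Markers of other cell types that can express *Hes1* were read in the same way. The 8 macrophage genes, with *Clec4f* the most abundant, summed to 96.3, 93.9 and 94.1 FPKM in the CL rats and to 243, 222 and 155 FPKM in the FL rats, and 5 of the 8 were upregulated DEGs, beside 9.29% of all genes. The 7 cholangiocyte genes summed to 10.3, 16.0 and 10.9 FPKM in the CL rats and to 19.1, 75.0 and 48.3 FPKM in the FL rats. *Spp1*, the most abundant of these, was the only DEG of the 7 (beside 9.29% of all genes), and without it the other 6 summed to 9.94, 13.2 and 10.2 FPKM in the CL rats and to 11.7, 14.4 and 17.2 FPKM in the FL rats, with overlap. *Krt7* had a log2 fold change of -0.82 (adjusted p of 0.259 from limma), and both *Krt7* and *Krt19*, keratins of bile duct cells, stayed at or below 1.06 FPKM in every rat. The 8 lymphocyte genes, led by *Cd4*, summed to 11.8, 9.78 and 10.1 FPKM in the CL rats and to 21.2, 28.5 and 23.2 FPKM in the FL rats, and *Cd4*, which macrophages of the rat also carry, was the only DEG of the 6 tested. Without *Cd4* the lymphocyte sums overlapped, at 1.92, 1.51 and 1.92 FPKM in the CL rats and 3.06, 4.69 and 1.85 FPKM in the FL rats. The 3 neutrophil genes, led by *S100a8*, summed to at most 0.87 FPKM in any CL rat and to at most 3.35 FPKM in any FL rat, with *Mpo* listed at 0 in the 3 CL rats. Both tested genes, *S100a8* and *S100a9*, were upregulated, beside 9.29% of all genes. Both calls were lost with median scaling (adjusted p of 0.0686 and 0.0821 from limma), with quantile normalization (0.133 and 0.2) and without FL2 (0.0731 and 0.0844). The part of these cells in the values of *Hes1* was not tested.

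Counted together, 1 of the 9 Notch genes tested was upregulated, where 9.29% of all genes tested were, and 0 were downregulated by limma, where 0.935% of all genes were. At an unadjusted p under 0.05, 2 of the 9 were higher (*Hes1* and *Notch3*) and 0 were lower in the FL group, beside 31.5% and 4.04% of all genes. The FL rats lay above all CL rats for 4 of the 9 and below all for 0, beside 35.7% and 4.78% of all genes (40.5% in either direction). The median log2 fold change of the 9 was 0.07, beside 0.29 over all genes, and 3 of the 9 lay above that median and 6 below. With median scaling the median of the 9 was -0.14 beside 0.08, and with quantile normalization it was -0.36 beside -0.04. The number with a positive sign went from 5 of 9 to 3 and to 2 under these scalings.

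**Figure D3:**
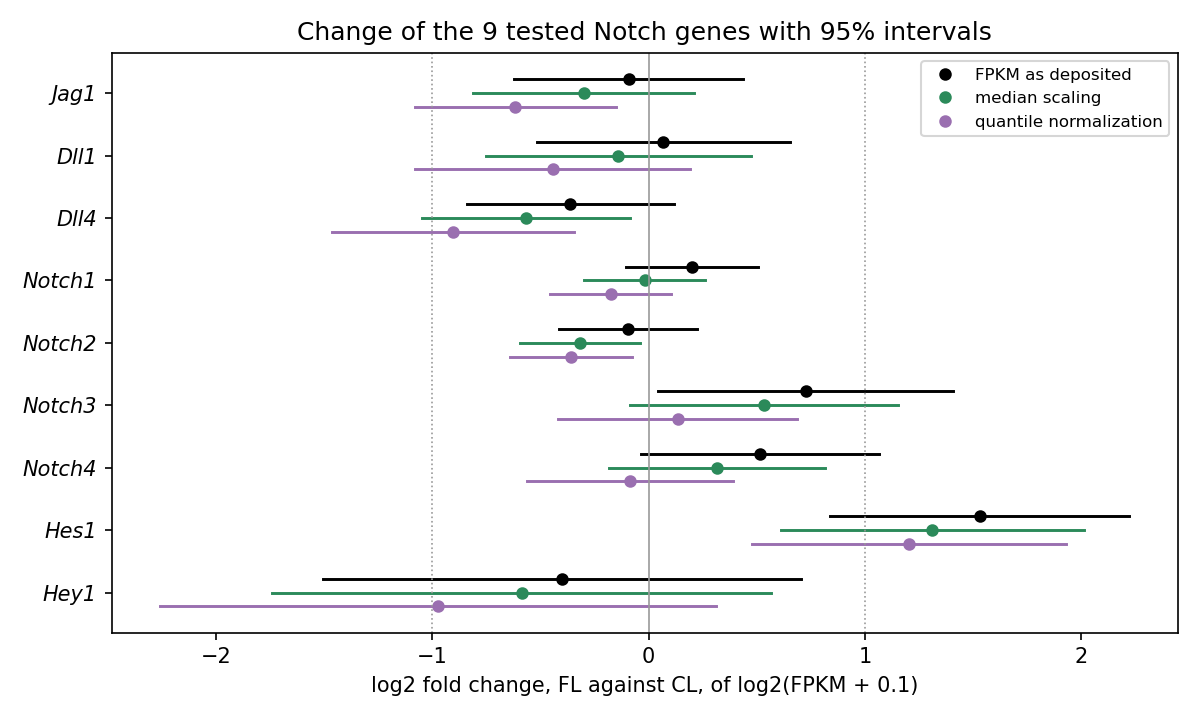
Log2 fold change of the FL against the CL group on log2(FPKM + 0.1) for the 9 Notch genes tested (horizontal axis), with 95% intervals from limma as bars, for the deposited FPKM, median scaling and quantile normalization. The points of Hes1 lie at 1.53, 1.31 and 1.20, and Notch1, Notch4 and Dll1 change sign with quantile normalization.

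A list of 55 further genes of the pathway was read in the same fit. Under their symbols 49 were found, and 46 were tested. Of these, 3 were upregulated (9.29% of all genes), *Dtx3*, *Numbl* and *Dlk1*, and 0 were downregulated by limma (0.935% of all genes). At an unadjusted p under 0.05, 15 of the 46 were higher and 3 were lower (*Itch*, *Kat2b* and *Dtx1*), beside 31.5% and 4.04% of all genes, where the 15 include *Dlk1*, tested only through the FL rats, and the 3 include *Dtx1*, tested only through the CL rats. At an adjusted p under 0.05 with any fold change, 9 were higher and 0 were lower, beside 16.9% and 1.94% of all genes. *Dlk1* passed the limit on the mean only through the FL rats and so had to differ, and without it 2 of 45 were upregulated and 8 were higher at any fold change. Over the 46, the median log2 fold change was 0.26, beside 0.29 over all genes.

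Among the proteases that cleave the receptors, *Adam10* and *Adam17* passed an adjusted p of 0.05 with a fold change under 2. *Adam10*, the protease known to make the ligand-dependent cleavage, stood at 5.37, 5.86 and 5.86 FPKM in the CL rats, and at 8.36, 10.72 and 10.43 FPKM in the FL rats. All FL rats were higher. Its log2 fold change was 0.77 (SE 0.13), or 0.48 relative to all genes, with an adjusted p of 0.00985 from limma that stayed between 0.00525 and 0.0423 over the alternatives.

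*Adam17*, a related sheddase, stood at 5.01, 5.19 and 4.93 FPKM in the CL rats, and at 7.78, 8.43 and 7.39 FPKM in the FL rats, again without overlap (log2 fold change 0.63, SE 0.12, adjusted p of 0.0112 from limma, 0.34 relative to all genes). With median scaling its adjusted p was 0.0507, within a range of 0.00821 to 0.0917 over the alternatives. *Furin*, which cleaves the receptors on their way to the membrane, was the most abundant of the proteases, with means of 65.1 FPKM (CL) and 63.6 FPKM (FL).

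Among the regulators of receptor turnover, 2 of 9 were upregulated (9.29% of all genes) and 0 were downregulated by limma (0.935% of all genes). At an unadjusted p under 0.05, 2 were higher and 2 were lower (*Itch* and *Dtx1*), beside 31.5% and 4.04% of all genes. *Dtx1* was tested only through the CL rats and so had to be lower, and its place in this count is not given as support. *Dtx3*, of the Deltex family of ubiquitin ligases, stood at 2.13, 2.15 and 2.27 FPKM in the CL rats, and at 3.96, 6.13 and 7.13 FPKM in the FL rats. The CL rats were nearly level, and all FL rats were higher. Its log2 fold change was 1.31 (SE 0.22, adjusted p of 0.00814 from limma) and 1.03 relative to all genes. Its adjusted p lay between 0.00209 and 0.0376 over the alternatives, and the fold change fell just under 2 with quantile normalization (log2 fold change 0.96).

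*Numbl*, a relative of the Notch inhibitor Numb, stood at 0.12, 0.26 and 0.19 FPKM in the CL rats, and at 0.33, 1.04 and 0.93 FPKM in the FL rats. FL2 was nearest to the CL rats. On the log2 scale the change was 1.49 (SE 0.44, adjusted p of 0.0493 from limma) and 1.20 relative to all genes, and the adjusted p ranged from 0.00998, without FL2, to 0.166, with quantile normalization. The call of *Numbl* was also lost with median scaling, with a pseudocount of 1, without a filter, for limma without trend and without any 1 rat other than FL2. *Itch*, a ubiquitin ligase and the most abundant gene of this role, stood at 22.54, 21.46 and 22.27 FPKM in the CL rats, and at 17.42, 18.73 and 17.06 FPKM in the FL rats. All FL rats were lower, with a log2 fold change of -0.32 (SE 0.10, adjusted p of 0.0642 from limma) and -0.60 relative to all genes. With median scaling its adjusted p was 0.0171, the lowest of a range that reached 0.173.

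In the nuclear complex, *Rbpj*, the DNA-binding partner of the receptor fragment, was listed on 2 lines of the table. The line on chromosome 14 stood at 3, 5 and 4.11 FPKM in the CL rats, and at 4.82, 6.30 and 5.61 FPKM in the FL rats, with overlap between the groups (log2 fold change 0.48, SE 0.20, adjusted p of 0.135 from limma, 0.19 relative to all genes). The line on chromosome 5 stayed at or below 0.07 FPKM and was not tested. The authors counted reads placed at 1 location, so a read that matches both lines alike would be in neither value, and the level of *Rbpj* is uncertain to that extent.

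The coactivator *Maml2* stood at 0.68, 0.77 and 0.76 FPKM in the CL rats, and at 1.05, 1.52 and 1.49 FPKM in the FL rats (log2 fold change 0.78, SE 0.22, adjusted p of 0.0441 from limma, 0.49 relative to all genes). The acetyltransferase *Ep300* stood at 6.90, 6.87 and 6.28 FPKM in the CL rats, and at 8.20, 9.03 and 9.59 FPKM in the FL rats (log2 fold change 0.41, SE 0.12, adjusted p of 0.0455 from limma, 0.12 relative to all genes). Both had all FL rats above all CL rats, and with median scaling neither passed, at adjusted p-values of 0.103 for *Maml2* and 0.237 for *Ep300*. The range over the alternatives was 0.0189 to 0.427 for *Maml2* and 0.032 to 0.372 for *Ep300*. *Kat2b*, an acetyltransferase and the most abundant gene of this role, had means of 9.38 FPKM (CL) and 7.21 FPKM (FL), with overlap (log2 fold change -0.39, adjusted p of 0.113 from limma, with a range of 0.0377, under median scaling, to 0.27).

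Of the 11 corepressor genes tested, *Ctbp2* was the only one at an adjusted p under 0.05 with any fold change. Of all genes, 16.9% were higher and 1.94% lower at that threshold. It stood at 1.19, 0.93 and 1.01 FPKM in the CL rats, and at 1.72, 1.93 and 1.92 FPKM in the FL rats. All FL rats were higher (log2 fold change 0.78, SE 0.18, adjusted p of 0.0244 from limma, 0.49 relative to all genes), and the adjusted p was 0.0695 with median scaling and ranged from 0.0236 to 0.33. *Ncor1*, the most abundant corepressor, had means of 19.7 FPKM (CL) and 20.4 FPKM (FL). None of the 5 enzymes that add sugars to the receptors and none of the 2 tested ubiquitin ligases of the ligands passed the test. The shares of all genes at an adjusted p under 0.05 are those given for the corepressors. *Pofut1*, the fucosyltransferase of the receptors, and *Mib1*, a ligase of the ligands, were the most abundant of these roles, with means of 8.21 and 7.74 FPKM over the CL rats and of 8.81 and 8.88 FPKM over the FL rats. At an unadjusted p under 0.05, 2 of the 5 enzymes were higher (*Lfng* and *Mfng*) and 0 were lower, beside 31.5% and 4.04% of all genes. The adjusted p of *Lfng* was 0.0914 from limma and ranged from 0.0423 to 0.984 over the alternatives.

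*Dlk1*, a non-canonical ligand known from fetal liver, was listed at 0 in the 3 CL rats and stood at 0.17, 0.26 and 1.57 FPKM in the FL rats. FL12 held most of the signal. It entered the test only through the FL rats, so neither its call nor a p is given as support, and without FL12 it did not pass the limit on the mean. *Dll3* was at 0 in every rat.

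The other targets were low. *Heyl*, the most abundant of them and known from vascular smooth muscle, stood at 0.42, 0.38 and 0.34 FPKM in the CL rats, and at 0.51, 0.91 and 1.36 FPKM in the FL rats. The groups did not overlap, and FL2 was nearest to the CL rats. This gave a log2 fold change of 1.01 (SE 0.35), or 0.72 relative to all genes, with an adjusted p of 0.0784 from limma, and without FL2 it was 1.34 with an adjusted p of 0.0174, the lowest of a range that reached 0.394. *Hey2*, tested only through the FL rats, and *Sox9* did not pass, at adjusted p-values of 0.203 and 0.168.

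The number of pathway genes called changed with each rat left out. Without FL2, 5 were upregulated in place of 3, namely *Dlk1*, *Dtx3*, *Numbl*, *Heyl* and *Dtx4*, the last of these with a log2 fold change of 1.10 and an adjusted p of 0.0272, so that 4 were upregulated when *Dlk1* is set aside. Without any 1 of the other 5 rats, 1 was upregulated. Over all genes tested, the 1381 upregulated became 1831 without FL2 and between 740 and 1001 without any 1 of the others.

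The sequence just before a gene's start is shown for the targets because RBPJ binds DNA there in Notch signaling and *Hes1* was the DEG. Promoters of 300 bases (250 before to 50 after the start) came from RefSeq on the build GRCr8, and 8 of the 10 Notch genes had an entry, with 9 promoters among them. Entries for *Hey1* and *Dll4* were missing. The letters GTGGGAA, bound by RBPJ, were searched on both strands and occurred in 6.29% of 33469 rat promoters. They occurred 1 time in the promoter of *Hes1*, 124 bases before the start, and 1 time in that of *Dll1*, on the opposite strand, 185 bases before the start. Of the other targets, *Hey2* held them 1 time, 61 bases before the start, and *Heyl* held them 0 times. The 29 bases around each match are given with the letters GTGGGAA in capitals, at chr11:84213152-84213180 on the minus strand for *Hes1*, at chr1:64993442-64993470 on the plus strand for *Dll1* (the strand opposite to the gene) and at chr1:28641028-28641056 on the plus strand for *Hey2*:
Hes1: tgaaagttactGTGGGAAagaaagtttgg
Dll1: cgaggggcacgGTGGGAAcgggctggagg
Hey2: tgggctgcggcGTGGGAAagagcctccag
A match describes the letters alone. Of these 3 genes, *Hes1* was the DEG and the groups overlapped for *Dll1*. *Hey2* stood at 0.06, 0.04 and 0.09 FPKM in the CL rats, and at 0.12, 0.18 and 0.26 FPKM in the FL rats, all FL rats being higher, with a log2 fold change of 0.79 (SE 0.41, adjusted p of 0.203 from limma), and it was tested only through the FL rats.

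Hes proteins bind the N-box, whose letters CACNAG occurred on either strand in 43.1% of all promoters. The promoter of *Hes1* held 4 of them, none overlapping the letters GTGGGAA. The promoter of *Notch1* held 4, of which 2 overlapped each other, *Notch4* held 2 and *Notch3* held 1. The promoters of *Notch2*, *Jag1*, *Jag2* and *Dll1* held 0. Of all promoters, 11.2% held 2 or more matches and 0.353% held 4 or more, counted in the same way with overlaps. As above, a match describes the letters alone.

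For the 6 Notch genes that averaged 1 FPKM or more, the genes with the most similar pattern over the 6 rats were found by Pearson's r of log2(FPKM + 0.1) among 10534 others. For *Hes1* these were *Med15*, a Mediator subunit (r = 0.996), and *Cd200r1*, a receptor of myeloid cells (r = 0.995). *Med15* stood at 8.11, 7.78 and 7.90 FPKM in the CL rats, and at 9.06, 10.48 and 9.13 FPKM in the FL rats, a pattern with FL5 highest as for *Hes1*, over a smaller range. For *Notch1* they were *Cndp1* (r = 0.996) and *Srpk2* (r = 0.994), and for *Notch2* *LOC500877* (r = 0.988) and *Stbd1* (r = 0.976). For *Jag1* they were *Cbll1* (r = 0.992) and AABR07004232.1 (r = 0.983), for *Dll1* *Dusp23* (r = 0.970) and AABR07033564.1 (r = 0.965), and for *Dll4* *Hbb*, a hemoglobin chain (r = 0.994), and *Zrsr1* (r = 0.992). An r over 0.95 was reached by 453 genes with *Notch1* and 206 with *Hes1*, but by 23 with *Dll4*, 13 with *Notch2*, 7 with *Jag1* and 4 with *Dll1*. These are descriptions over 6 rats in 2 groups, with no p.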

How the data were processed

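The authors trimmed reads with FASTX-Toolkit 0.0.13, aligned them with TopHat2 and deposited FPKM per gene and rat. GRCH38 is named as the genome, although the identifiers are those of Ensembl for the rat. Rats were grouped by their labels, and 2 further columns of values were not used because no sample carries their names. Genes whose FPKM averaged 0.1 or more were tested on log2(FPKM + 0.1) by limma 3.58.1 (R 4.3.3) with a mean-dependent prior variance, after the procedure had been tested on simulated data. Ratios and shares within a rat were compared by exact two-sided permutation tests over the 20 divisions of the rats, using Python 3.11.15 with numpy 2.4.6, pandas 2.3.3 and scipy 1.17.1, and plots used matplotlib 3.10.9. The members and lists were chosen with earlier results of these data known. Named were all members, pathway genes with an adjusted p under 0.05 (of which 1 is not reported here), the most abundant gene of each role and marker list, genes at 0, and for members with a mean of at least 1 FPKM the 2 genes of highest r. *Dtx1*, *Rbpj*, *Heyl*, *Dtx4*, *Lfng*, *Mfng* and single markers were also named after their values were seen. As alternatives, the pseudocount was set to 1 or 0.01, the filter was dropped or raised to 1 FPKM, and the rats were put through median scaling over 9201 genes above 1 FPKM in every rat or quantile normalization. Further fits used a constant or a robust prior variance, no fold limit, or all rats but 1. *Dner*, *Aph1b*, *Maml3*, *Hdac1*, *Hes5*, *Nrarp* and *Pecam1* were not matched under these symbols and were not analysed here.

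Summed FPKM ranged from 309425 to 340467 in the CL rats and from 272110 to 309226 in the FL rats. The study gives a lower bound on its clean reads but does not say whether it applies to each library, and read counts of single rats were not used here, so the absolute depth of each rat was not determined. Steps in the low FPKM of U6 genes put the depth relative to CL5 at 0.646 for CL6, 0.824 for CL7, 0.646 for FL2 and 0.737 for FL5, with 69.0% to 82.9% of the values under 3.5 steps lying within 6% of a step from a multiple of it. Evenly spread values would do so in 10.6% to 13.7% of cases at these steps, a share that does not allow for each step having been chosen as the one with the most matches. The depth of FL12 was not settled. A search for steps from 0.1 FPKM gave 0.105 FPKM for FL12, with 86.4% of 22 values at multiples (13.9% if evenly spread). From 0.15 FPKM, a start chosen after that result was seen, it gave 0.315 FPKM, with 69.8% of 43 values (10.9% if evenly spread). The steps of the other rats were the same in both searches.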

Additional observations from a re-analysis of the deposited data

How the results depend on the processing

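The only Notch DEG, *Hes1*, kept its direction under all alternatives, and the number of upregulated Notch genes was 0 with quantile normalization (log2 fold change 1.20, adjusted p of 0.0564) and 0 to 1 with a rat left out. The number of upregulated genes among the other pathway genes was 1 with a pseudocount of 1, without a filter, with a mean of at least 1 FPKM, with median scaling and for limma without trend, 0 with quantile normalization, 9 with no fold limit, and 1 to 5 with a rat left out. Downregulated genes numbered 0 in both lists under all alternatives, by limma. Over all genes, the 1381 upregulated became 462 with a pseudocount of 1, 854 with a mean of at least 1 FPKM, 826 with median scaling, 453 with quantile normalization, 2518 with no fold limit, and 740 (without CL7) to 1831 (without FL2) with a rat left out. The 139 downregulated became 72 with a pseudocount of 1, 231 with quantile normalization, 288 with no fold limit, and 81 (without CL6 or CL7) to 160 (without FL2). Log2 fold changes that reversed, none of them past the test, were those of *Notch1* (-0.018 with median scaling, -0.18 with quantile normalization), *Notch4* (-0.087 with quantile normalization), *Dll1* (-0.14 and -0.44 with these scalings, -0.14 to 0.21 with a rat left out) and *Jag1* (-0.28 to 0.015 with a rat left out). The cause was not tested beyond the shift of all genes that scaling brings. The 3 log2 ratios within a rat and the share of *Notch2* kept their sign with each rat left out, at 0.14 to 0.54 for *Jag1* to *Dll4*, 0.17 to 0.39 for *Notch3* to *Notch4*, 1.26 to 2.90 for *Hes1* to *Hey1*, and -7.97 to -6.47 percentage points for the share. With quantile normalization the share was -3.90 percentage points. The alternatives for the share were chosen after seeing the data. No paired analysis was possible because the groups share a single rat number, 5, and nothing says that it marks a shared animal. With 3 rats in a group, FPKM near 0.1 for *Jag2* and the wide interval of *Hey1* (SE 0.48) limit what could be detected, and a p above the threshold does not show that levels were equal.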
